A study of Caenorhabditis elegans with 6 samples.

Results

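The wild-type N2 hermaphrodite of Caenorhabditis elegans at L4, the last larval stage, is described here from whole-body RNA. Its libraries were chosen by genotype label alone and made up 3 of the 6 libraries in the series, whose other libraries, from glna knockout worms, were not used. N2 is the laboratory reference strain, and the worms were untreated and carried no transgene or deletion named in the labels. Nothing states that the replicates came from separate cultures, so the spread between them may be partly technical. In all, 21507 genes were listed. For each gene the level is the normalized read count divided by the gene's length in kilobases, and genes were ranked by the mean level of the 3 libraries.

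At L4 the hermaphrodite grows towards its final size, builds the adult cuticle beneath the larval one and finishes the gonad and vulva. Its germ line makes sperm first and then switches to oocytes, so a whole worm holds somatic tissues beside germ cells in both programmes. Yolk proteins, the vitellogenins, are made in the intestine around the passage to adulthood and taken up by oocytes. In whole-body RNA, fewer cells of a type and less RNA per cell cannot be told apart.

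The libraries held 18764830, 19142750 and 19736795 reads assigned to genes in wild type replicates 1, 2 and 3. Genes with at least 1 read numbered 18911, 19021 and 19167 in the same order. A read was found in every library for 17470 genes (81.2% of those listed), in 1 or 2 libraries for 3180 genes, and in none for 857 genes. A count of 0 allowed up to 2.99, 2.96 and 2.81 normalized counts in replicates 1 to 3, counting error only. Ribosomal RNA genes took 0.363%, 0.498% and 0.763% of the reads, lowest in replicate 1 and highest in replicate 3.

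The stage and sex on the label were compared with marker genes. Male genes were low: of 11, the highest was ram-5, a gene of male tail ray formation, at 33.9 ± 6.26 (SD, n = 3), and 6 were under 10. Of all 18576 protein-coding genes, 3754 were under 10. The sensory channel gene pkd-2, used by males in mating, had levels of 0.445, 0.441 and 0.209, and no read of cwp-2, expressed in male sensory neurons, was found in any library. Genes of early embryos were also low, with 9 of 11 under a level of 10. The exceptions were elt-7, which the larval intestine also expresses, and cey-2, a cold-shock-domain gene of the germ line (8341 ± 1961). Of 9 dauer-stage genes, the highest was scl-3 at 232 ± 6.42. Genes listed for adults, 6 of them vitellogenins, were high, with all 10 above a level of 1000. Among all 18576 protein-coding genes, 1884 lay between 1000 and 10000 and 265 at 10000 or more. The adult cuticle collagen col-19 had levels of 26239, 21195 and 24032 in replicates 1 to 3, which placed it at rank 129 of all genes. Its level and those of the vitellogenins put transcripts best known from the adult beside the L4 programme in every library, and the exact age of the worms is not given in the sources used here.

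Transcripts were concentrated in few genes. Of the summed level of all genes, 82 genes held 25%, 321 held 50%, 1732 held 75% and 5051 held 90%. Without division by length, 550 genes held 50%. The 10 highest genes took 4.46%, 4.62% and 4.36% of the level in replicates 1 to 3, a mean of 4.48% ± 0.13 (SD, n = 3). The 100 highest took 28.6% ± 0.70 and the 1000 highest 67.1% ± 0.70. Libraries largely shared these genes: 7 genes were among the 10 highest in every library, 88 among the 100 highest and 916 among the 1000 highest.

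**Figure D1:**
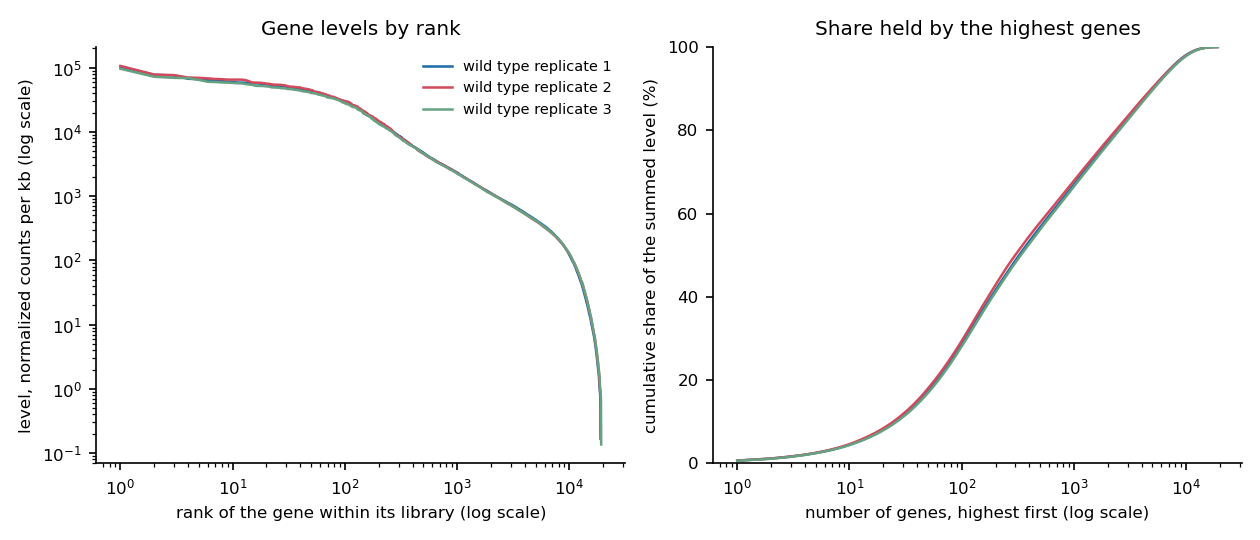
Left, gene level in normalized counts per kb against the gene's rank within its library, both on log scales. Right, cumulative share of the summed level (%) against the number of genes counted from the highest down (log scale); each line is 1 of the 3 wild-type libraries, and the lines lie close together, passing 50% near 321 genes.

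The median level of detected genes was 178. The 5th percentile was 4.50 and the 95th 2580, a ratio of 573, and the highest gene stood at 101750. Of all 21507 genes, 269 had a level of at least 10000, 1925 lay between 1000 and 10000, 8488 between 100 and 1000, and 5386 under 10. High genes were short: the deposited length had a median of 658 bases in the 10 highest genes and 706.5 bases in the 100 highest, against 1180 bases over detected genes. Over all detected protein-coding genes the order was different. Split into 4 equal groups by length, the shortest genes had a median log2(level + 1) of 7.17 ± 0.04 and the longest 8.06 ± 0.02 (SD, n = 3), while 345 of the 1000 highest genes came from the shortest group and 143 from the longest.

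The machinery of protein synthesis led the ranking. The highest gene was eef-1A.1 (F31E3.5; chromosome III, 6970026 to 6971719, minus strand, WBcel235), an elongation factor that brings charged tRNAs to the ribosome, with levels of 103358, 106134 and 95759 in replicates 1 to 3. The second copy, eef-1A.2 on chromosome X, had levels of 9505, 12548 and 10428; as the genes are close paralogs, the division of reads between them is uncertain. The factor that moves the ribosome along the message, eef-2, stood at 32968 ± 623. Replicate 2 was the highest and replicate 3 the lowest library for eef-1A.1.

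Cytosolic ribosomal proteins, the protein parts of the large and small ribosomal subunits, took 21%, 21.9% and 20.6% of the summed level from 84 genes (mean 21.2% ± 0.66). Of the 20 highest genes 14 were ribosomal proteins, and of the 100 highest 63 were. Their share depended on the length scaling, since they are short: without division by length it was 11.3%. The large-subunit gene rpl-27A (Y37E3.8; chromosome I, 2069683 to 2070607) had levels of 75472, 76362 and 71973, and the small-subunit gene rps-23 (F28D1.7; chromosome IV, 12390264 to 12391396) had 77032, 77933 and 68543. The stalk protein genes rla-0 and rla-1 averaged 62132 ± 3366 and 59714 ± 4784. Members were close in level: 80 of 84 lay above 10000, and the median was 39912. The lowest was rpl-42, with 159 ± 15.4. Mitochondrial ribosomal proteins, which serve the organelle's own ribosome, were far lower, with a median of 880 over 66 genes and a highest level of 1971 ± 102 in mrpl-12.

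Other genes among the 20 highest encoded binding, digestive and energy proteins. The fatty acid and retinol binding protein gene far-2 (F02A9.3, chromosome III) had levels of 66967, 70105 and 69246, the closest agreement among the 20 highest genes. The aspartic protease gene asp-1 (Y39B6A.20, chromosome V), expressed in the intestine, had 57082, 64981 and 57558, and was highest in replicate 2. Y82E9BR.3 averaged 65196 ± 2419, and F41F3.3 averaged 60640.4 ± 7604, the widest spread of the 20, again with replicate 2 highest. The mitochondrial ADP/ATP carrier gene ant-1.1 ranked 30 at 49005 ± 1283.

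Genes of energy supply followed. The mitochondrial genome, whose protein genes all encode parts of the respiratory chain or ATP synthase, took 1.92%, 2.0% and 1.7% of the summed level in replicates 1 to 3 (mean 1.89% ± 0.13). COX3, COX2 and COX1, the core subunits of cytochrome oxidase, averaged 54520.1 ± 2227, 52207 ± 5757 and 44871 ± 6207. The subunits of complex I ranged from 124 ± 48.0 for ND4L to 20199 ± 1738 for ND3. Transcripts of that genome lie end to end, so neighbouring genes can share reads, and how messenger RNA was enriched is not given in the sources used here. The 55 listed nuclear genes of the respiratory chain and ATP synthase took 2.25% in each library, with an SD of 0.00302 percentage points. Among the 55 listed, the ATP synthase genes atp-2 and atp-1 were highest at 31958 ± 1145 and 24385 ± 508. The list was made by gene symbol, and Y82E9BR.3, which has no symbol here and a level of 65196, was not in it. The share and the ranking therefore cover the listed genes only. Vacuolar ATPase genes, whose pump acidifies organelles and the gut lumen, took 0.730% ± 0.04 from 21 genes, led by vha-2 at 17149 ± 723. Glycolytic genes took 0.350% ± 0.01 from 19 genes; the enolase gene enol-1 averaged 8476 ± 200.4. The proteasome, which degrades tagged proteins, took 0.582% ± 0.01 from 33 genes. Of these, 32 lay between 1000 and 10000, and the core-particle genes pbs-1 and pas-3 averaged 4116 ± 18.5 and 4051 ± 37.3.

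**Figure D2:**
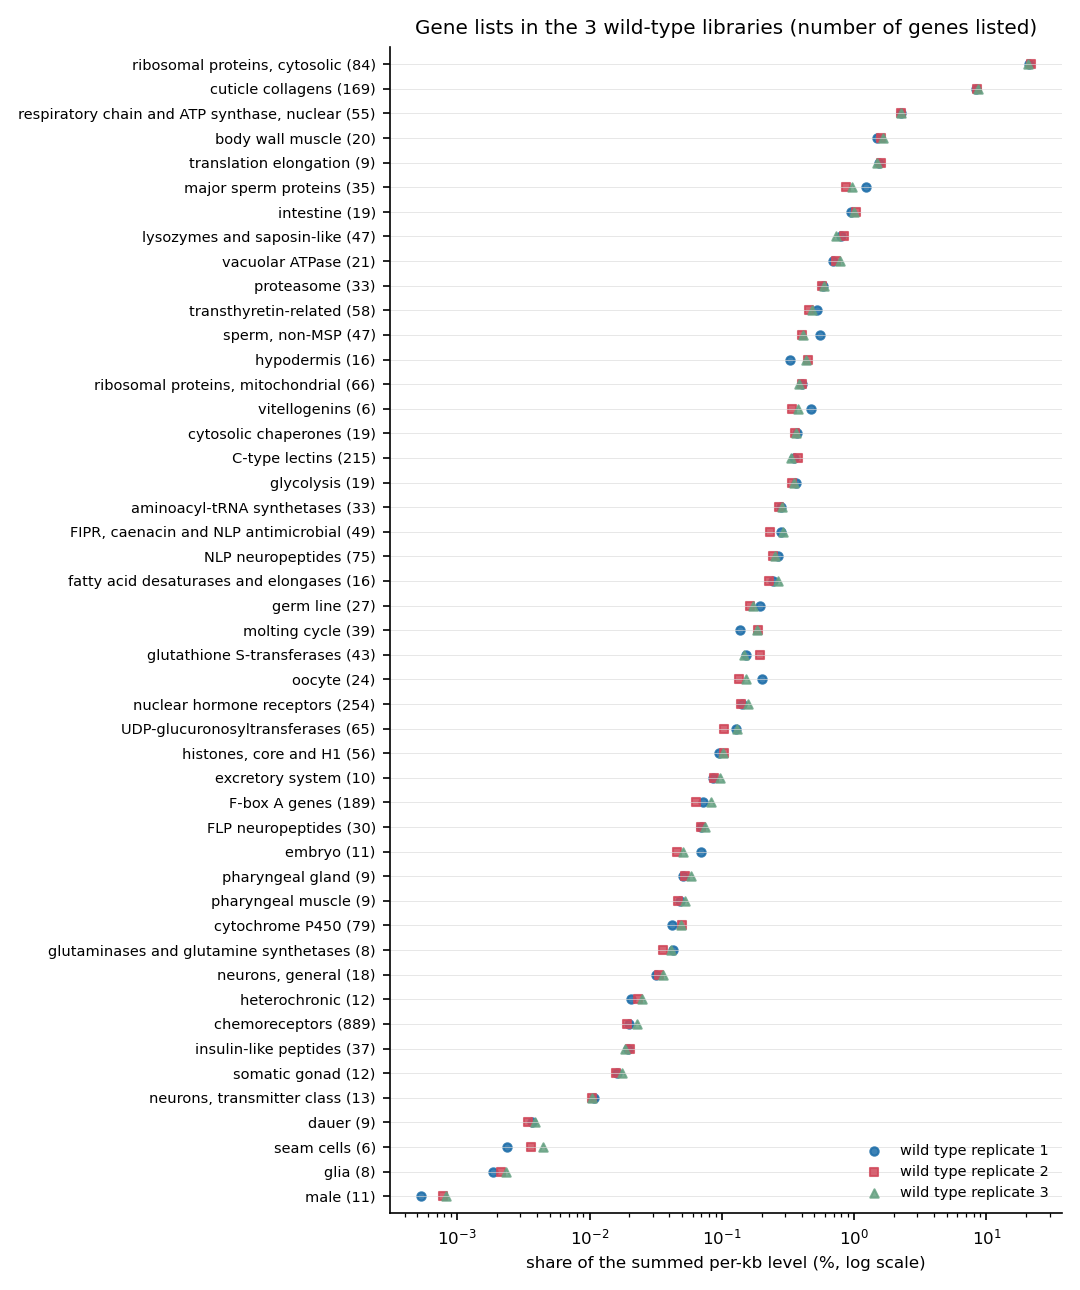
Share of the summed per-kb level (%, log scale) taken by each gene list, with the number of genes listed in brackets; the 3 markers of a row are the 3 wild-type libraries. Cytosolic ribosomal proteins (21.2%) and cuticle collagens (8.44%) lie far to the right, the male list lies at the left end, and the markers of wild type replicate 1 stand apart for sperm, oocyte, hypodermis and molting lists.

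Cuticle building gave the next block. Cuticle collagens, the structural proteins of the exoskeleton, took 8.31%, 8.42% and 8.59% of the summed level from 169 genes (mean 8.44% ± 0.14). They were strongly graded: 51 lay above 10000 and 26 under 10. The highest were col-139 with levels of 47839, 34512 and 44813 and col-124 with 46654, 35118 and 43301, both lowest in replicate 2. Genes of the same family share sequence repeats, so their counts may borrow reads from one another. The body-shape collagens dpy-13 and dpy-5 averaged 18504 ± 3977 and 18482 ± 3394, and were lowest in replicate 1. Of other members, col-12 stood at 12138 ± 1354, and the adult genes col-62 and col-7 at 5940.4 ± 1184 and 5758 ± 1265.

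Genes of the molting cycle oscillate in expression with each larval molt in the worm. All 39 listed had a read in every library, with a median level of 397. Replicate 1 was lowest for 31 of them (79.5%), against 33.5% of all genes averaging 10 or more. The highest were grl-4, a ground-like gene, at 5527 ± 575 and mlt-8 at 2237 ± 723. The nuclear receptor nhr-23, a regulator of molting, had levels of 388, 413 and 389. The period-like timing gene lin-42 had levels of 489, 875 and 815, lowest in replicate 1. Among the other timing genes, lin-28 averaged 321 ± 17.9, lin-29, which directs the larva-to-adult switch of the skin, 173 ± 39.2, and hbl-1 37.2 ± 1.8. Seam cells, the lateral skin stem cells, gave low values: of 6 marker genes grd-10 was highest at 317 ± 66.9.

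Contractile genes were high and even. The 20 genes of body wall muscle took 1.49%, 1.60% and 1.65% of the level, and 10 of them lay above 10000. The actin gene act-4, the highest gene of chromosome X, had levels of 36754, 41617 and 41902 and ranked 56; actin genes are near-identical, so the division of reads among them is uncertain. The troponin C gene pat-10 averaged 37604 ± 2423, the myosin light chain gene mlc-2 26750.1 ± 660.0, and the troponin I gene unc-27 21801 ± 194. Of the myosin heavy chains of body wall muscle, unc-54 stood at 20575 ± 990.2 and myo-3 had 1512, 1764 and 1634. Paramyosin (unc-15), the core of the thick filament, had 14665, 15793 and 15867. Their transcription factor hlh-1 was at 96.1 ± 8.05. Replicate 1 was lowest for 17 of the 20 genes, and none had a coefficient of variation over 0.3. Pharyngeal muscle, a small organ, gave lower values, with tni-4 at 2123 ± 69.3 and myo-2 at 1412 ± 42.8. The pharyngeal gland genes dod-6 and phat-4 averaged 4194 ± 229 and 2777 ± 188.

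The intestine is made of few large cells. Its 19 marker genes took 0.989% ± 0.04 of the level. After asp-1 came act-5, the actin of the microvilli, at 22249.9 ± 1439, and the proteases asp-3 and cpr-6 at 17663 ± 501 and 10892 ± 604. The gut transcription factor elt-2 had levels of 355, 365 and 311, and the esterase gene ges-1 averaged 605 ± 29.4. Of 47 lysozyme and saposin-like genes, which act in digestion and defence, 37 had a read in every library. The saposin-like gene spp-5 led them with 26191 ± 2772, followed by the invertebrate lysozyme gene ilys-5 at 18172 ± 437. By contrast spp-17 had 18112 and 21029 in replicates 1 and 2 against 10697 in replicate 3. The iron-storage gene ftn-1 was the lowest intestinal marker, at 117 ± 25.8.

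All 6 vitellogenin genes had levels above 1000. They took 0.469%, 0.338% and 0.373% of the summed level, and 1.63% without division by length, since they are long. The highest, vit-6 (chromosome IV), had levels of 29910.0, 22519 and 24313, and vit-2 (chromosome X) had 24447, 14272 and 17720.3, both highest in replicate 1. The lowest was vit-4, at 2141 ± 281. Of the 6 genes, 3 were highest in replicate 1 and 3 in replicate 2. The X-linked genes vit-3, vit-4 and vit-5 are nearly identical, so their values are uncertain one by one.

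Sperm genes, 35 for major sperm proteins and 47 others, took a larger share of the level than the 24 oocyte genes, while the median level per gene was 625 for sperm genes other than major sperm proteins and 606 for oocyte genes. Major sperm proteins, which drive the crawling of the amoeboid sperm and signal to oocytes, took 1.23%, 0.865% and 0.962% of the summed level from 35 genes, and 0.377% on average without division by length. The highest was msp-31, with levels of 17927, 13314 and 13891, followed by msp-40 at 10635 ± 1861. These genes are near-identical copies, and the family sum is firmer than any member; 28 of the 35 lay above 1000, and the lowest, msp-32, was at 4.02. The other 47 sperm genes took 0.553%, 0.403% and 0.413%. The sperm chromatin gene spch-1 led them at 6432 ± 878, followed by ssq-4 at 5054 ± 1265. The genes fog-1 and fog-3, which specify sperm fate, were at 85.3 ± 11.8 and 142 ± 30.7, and fer-1, which acts in the fusion of vesicles with the plasma membrane of sperm, at 114 ± 6.77.

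Of the 27 general germ-line genes, all had a read in every library and the median level was 605. The P-granule helicase gene glh-1 averaged 4798 ± 198, and gld-1, a translational repressor of meiotic germ cells, had 4595, 3553 and 3641. The receptor glp-1, which keeps germ stem cells dividing, was at 327 ± 51.4. Oocyte genes were already present and took 0.203%, 0.135% and 0.153% of the level from 24 genes. The eggshell genes perm-2 and perm-4 averaged 4975 ± 708 and 4348 ± 719, and cpg-2, of the same shell, had 2887, 1324 and 1635. The yolk receptor gene rme-2 was at 536 ± 169 and the oocyte maturation regulator oma-1 at 789 ± 232. Replicate 1 was highest for 24 of 24 oocyte genes, for all 33 major sperm protein genes with a mean of at least 10 normalized counts and for 24 of 27 germ-line genes, against 39.9% of all genes with that mean. In sex determination, her-1, the male-promoting ligand, was at 1.87 ± 1.87, and tra-1, whose product directs hermaphrodite development in the soma, at 417 ± 32.3.

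Neuronal genes were at low to middle levels. The 18 general neuronal genes took 0.0338% ± 0.0021 of the level, with a median of 187, against 144 over all protein-coding genes. Their median coefficient of variation (SD over mean of the 3 libraries) was 0.0813. The 13 transmitter-class genes had a lower median level, 48.1, and a median coefficient of variation of 0.228. Over all genes that coefficient was larger at low counts, with medians of 0.287 for mean counts of 10 to 30 and 0.0908 for 300 to 1000. The neuropeptide-processing genes egl-21 and egl-3 were highest at 974 ± 72.1 and 659 ± 44.9, and the synaptic vesicle gene rab-3 had 303, 363 and 372. Of the genes that define transmitter classes, bas-1, needed for dopamine and serotonin synthesis, was at 500.1 ± 57.0, unc-25, of GABA synthesis, at 343 ± 33.1, and tph-1, of serotonin synthesis, at 10.9 ± 3.49. Glial genes were lower still, the highest being vap-1 at 191 ± 19. All 30 FMRFamide-like peptide genes had a read in every library, with levels from 82.0 for flp-25 to 1404 ± 148 for flp-28. Of 75 neuropeptide-like protein genes, nlp-24 and nlp-33, antimicrobial members of the skin, led at 9083 ± 1505 and 5971 ± 142. Insulin-like peptide genes ranged lower, with 28 of 37 detected in every library and ins-27 highest at 481 ± 53.4.

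Chemoreceptor genes were mostly at or near 0. Of 889 listed, most of them expressed in few sensory neurons, 254 had a read in every library and 128 had none in any. Their summed level was 0.0207% ± 0.0020 of the total, and 837 lay under a level of 10. The highest were srv-1 at 310.4 ± 31.3 and srr-4 at 240.2 ± 44.2. Of the 128, 108 were listed as protein-coding, out of 380 protein-coding genes with no read in any library. The same 380, out of 18576 protein-coding genes, held 12 of 254 listed nuclear hormone receptor genes, 7 of 215 C-type lectin genes and 1 of 189 F-box A genes.

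The other large gene families of response and regulation showed a few high members above a long low tail. Of 215 C-type lectin genes, clec-63 stood at 16047 ± 1604 and clec-50 at 6588 ± 1071, while 99 lay under 10. Nuclear hormone receptors, ligand-binding transcription factors greatly expanded in the worm, had 213 of 254 genes detected, a median of 45.2 and nhr-114 and nhr-68 highest, the second at 949 ± 188. F-box A genes, predicted adaptors of ubiquitin ligases, had 161 of 189 detected, with fbxa-72 at 754 ± 234. Cytochrome P450 genes reached 662 ± 241 in cyp-35A2, glucuronosyltransferases 1998 ± 154 in ugt-47, and glutathione S-transferases 4719 ± 939 in gst-1. Of the 43 glutathione S-transferase genes, 34 had a mean of at least 10 normalized counts, and replicate 2 held the highest family share at 0.193%, against 0.152% and 0.148% in replicates 1 and 3. The heat-shock genes hsp-1 and hsp-90, both constitutive chaperones, were at 24916 ± 851 and 18338 ± 349. Genes of fatty acid elongation and desaturation were led by elo-6, at 6304 ± 307.

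A protein domain label was deposited for 6078 genes (28.3%). Under the most frequent label, the protein kinase domain, 265 of 275 genes were detected in every library, with a median level of 234 and the casein kinase genes kin-19 and kin-3 highest at 4453 ± 48.2 and 3265 ± 131. RNA-recognition-motif genes were detected in all 82 cases and had a median of 775. The highest was rbm-3.2 at 29587 ± 2578, followed by the poly(A)-binding protein gene pab-1 at 19829 ± 714. Ras-family GTPase genes had a median of 357, led by rab-11.1, of recycling endosomes, at 7000.5 ± 127. Homeobox genes, developmental regulators often limited to few cells, had a median of 23.9 over 70 genes, with dve-1 highest at 412 ± 35.3. Rhodopsin-type receptors under the 7tm_1 label had a read in every library for 121 genes, all but 1 of those listed, at a median of 25. The motile sperm domain, shared by major sperm proteins and their relatives, marked 108 genes that took 1.63%, 1.17% and 1.29% of the level, and 1.85% of its genes lay on chromosome X.

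The glutaminase genes, which give the series its name, lay on both sides of 178, the median level of detected genes. The means of glna-3 and glna-2 were above it and that of glna-1 below. Glutaminases convert glutamine to glutamate. The level of glna-3 was 399.6, 352 and 334, that of glna-2 246, 193 and 212, and that of glna-1 102, 97.5 and 103. Replicate 1 was the highest library for glna-3 and glna-2, and replicate 3 for glna-1. The glutamine synthetases, which catalyse the reverse step, reached 2858 ± 205 in gln-3 and 1436 ± 176 in gln-2.

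By annotated class, 18576 protein-coding genes took 98.2%, 98.1% and 98% of the summed level, and 16478 of them (88.7%) had a read in every library. The 1882 genes listed as ncRNA took 0.809% ± 0.03, with 401 detected. The 725 pseudogenes took 0.716% ± 0.02. More than 50% of that pseudogene level, 55.1%, came from 28 genes that the current Ensembl annotation lists as protein-coding. They were led by rpl-41.2 (chromosome I), of ribosomal protein L41, with levels of 56467, 53295 and 51598 at rank 21 of all genes. Most of the 55.1% came from that gene alone, and rpl-41.1 was next at 4573 ± 324. Small RNA classes were nearly empty: 9 of 37 miRNA genes, 6 of 26 tRNA genes and 3 of 12 snRNA genes had a read in every library. Ribosomal RNA genes took 0.158%, 0.213% and 0.329%, and rrn-3.1, of the large-subunit RNA, had levels of 17047, 23623 and 35814, lowest in replicate 1.

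Levels of very short genes can rest on few reads. The 1862 genes under 200 bases took 0.892% of the summed level. C28H8.14, a short ncRNA gene, ranked 216 at 12969 ± 1202 from 1238, 1503 and 1421 reads. The piRNA gene 21ur-10153, of 21 bases, ranked 461 at 5046 ± 749.7 although its mean normalized count was 106. A longer transcript over the locus cannot be told from the listed gene, and no other listed gene overlapped either of them. Of snoRNA genes, which guide RNA modification, F58D5.11 was highest, with a mean of 165 normalized counts.

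Chromosome X stood below every autosome in each library. The median of log2(level + 1) over detected protein-coding genes was 6.63, 6.76 and 6.79 on chromosome X in replicates 1 to 3, against 7.77, 7.69 and 7.73 over all autosomes. The difference, X minus autosomes, was -1.13, -0.93 and -0.94 (mean -1.0 ± 0.11), which is a ratio of 0.50 ± 0.04. It had the same sign in each library. It was smaller among high genes: at the 90th percentile it was -0.35 ± 0.10. No single-tissue samples were analysed here.

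Autosomes also differed from each other. Chromosomes I and III had medians of 8.14 ± 0.06 and 8.14 ± 0.06, chromosome IV 7.76 ± 0.03, chromosome II 7.59 ± 0.01 and chromosome V 6.83 ± 0.07, so that V lay nearest to X (6.73 ± 0.08). Within each library X was below V, with 6.63 against 6.77 in replicate 1, 6.76 against 6.82 in replicate 2 and 6.79 against 6.90 in replicate 3. A read in every library was found for 81.1% of protein-coding genes on V, against 93.8% on I. Chromosome V carried 470 of the protein-coding chemoreceptor genes. Without chemoreceptors, its median was 6.98 ± 0.05 and its share of detected genes 87.6%, a split chosen after the values were seen. Of the summed level, chromosome X took 9.13% ± 0.30, I 20.4% ± 0.02, II 14.6% ± 0.09, III 18.4% ± 0.05, IV 18.9% ± 0.28 and V 16.7% ± 0.05. The highest genes were rpl-27A on I, rpl-10 on II, eef-1A.1 on III, rps-23 on IV, F41F3.3 on V and act-4 on X.

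**Figure D3:**
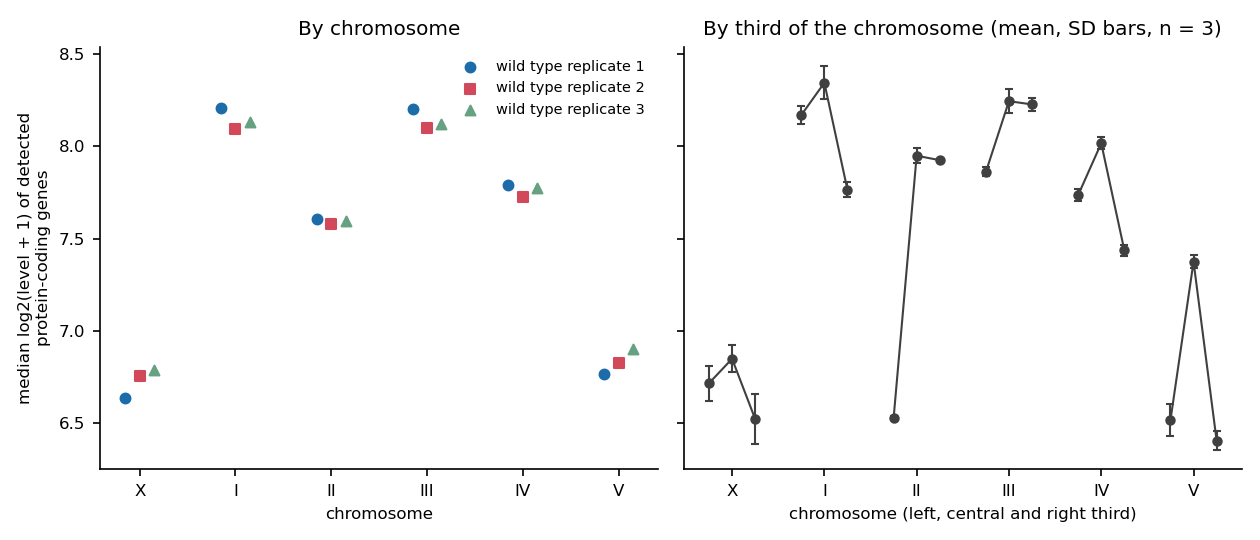
Median log2(level + 1) of detected protein-coding genes by chromosome (left, 1 marker per wild-type library) and by left, central and right part of each chromosome (right, mean of 3 libraries with SD bars). Chromosomes X (6.73) and V (6.83) lie lowest, I and III (8.14) highest, and the central part has the highest mean of each chromosome, on II and III by less than the spread between libraries.

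Levels also differed by position within a chromosome. Each chromosome was cut into 3 parts of equal length, and the central part had the highest mean of medians on all 6. Within single libraries it was the highest on I, IV, V and X in all 3, and on II and III in 2 of 3. On chromosome V it was 7.37 ± 0.04, against 6.52 ± 0.09 in the left part and 6.41 ± 0.05 in the right. On chromosome II the left part alone was low, at 6.53 ± 0.01, against 7.95 ± 0.04 in the centre and 7.92 ± 0.01 on the right. The centre of II exceeded its right part by 0.02 ± 0.04 and the centre of III its right part by 0.02 ± 0.03, less than the spread between libraries. On X the centre exceeded the left part by 0.16, 0.13 and 0.12 in replicates 1 to 3.

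Gene lists were spread unevenly over the chromosomes. Chromosome X held 14.2% of all protein-coding genes. It held none of the 35 major sperm protein genes, the 47 other sperm genes, the 27 germ-line genes or the 33 proteasome genes, and 2 of 84 cytosolic ribosomal protein genes. It held 8 of 20 body wall muscle genes, 13 of 30 FMRFamide-like peptide genes and 5 of 6 vitellogenin genes. The major sperm protein genes lay on chromosomes II (15) and IV (20). Among the 100 highest genes 2 were on X, and among the 1000 highest 11.2% were.

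Spread between libraries was measured by the coefficient of variation, the SD of the 3 normalized counts over their mean, over the 15129 genes that averaged 10 or more. Its median was 0.115, with quartiles of 0.0652 and 0.202. Beside it, the median counting error, taken as the inverse square root of a gene's mean reads, was 0.0572. The median was 0.0764 without replicate 1, 0.0985 without replicate 2 and 0.105 without replicate 3; the median SD of 2 values is lower than that of 3, which lowers each of these. For 2433 genes (16%) it was under 0.05 and for 1939 (12.8%) over 0.3. It narrowed with depth: the median was 0.287 for means of 10 to 30, 0.122 for 100 to 300 and 0.0720 for 1000 to 3000. Above 3000 it stayed near 0.065, far above the counting error of 0.0145 for 3000 to 10000. edgeR's common biological coefficient of variation, which removes the counting error, was 0.166. It was 0.137 without replicate 1, 0.166 without replicate 2 and 0.189 without replicate 3.

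**Figure D4:**
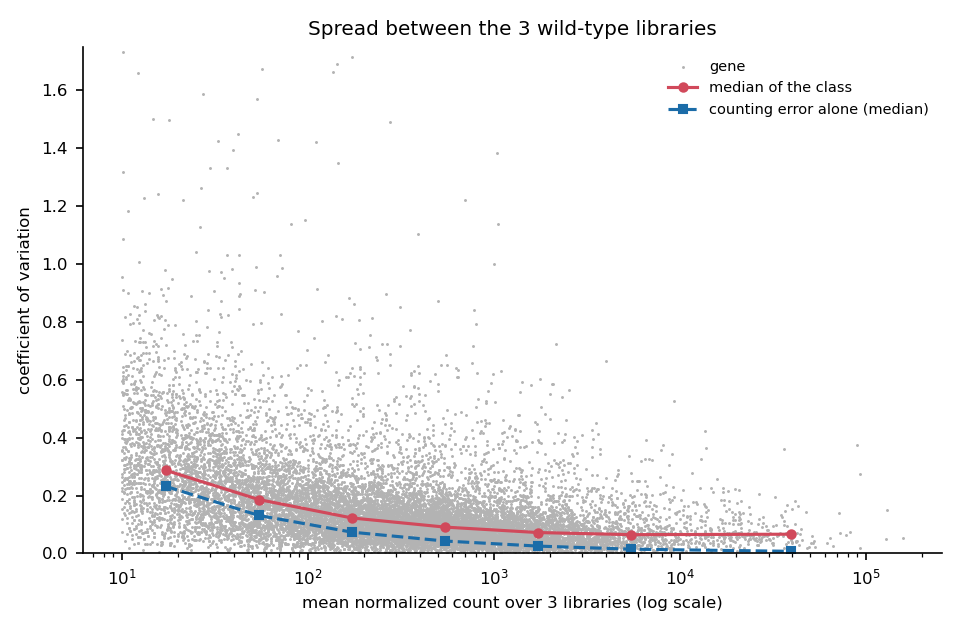
Coefficient of variation between the 3 wild-type libraries against the mean normalized count (log scale) for genes averaging 10 or more, 1 grey point per gene. The solid line joins the median of each class of mean count (0.287 in the lowest, 0.0663 in the highest), and the dashed line joins the median counting error, the inverse square root of a gene's mean reads.

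Spread also differed between gene lists. The proteasome genes had a median coefficient of variation of 0.0243, the nuclear respiratory chain genes 0.0348, the aminoacyl-tRNA synthetases 0.0447 and glycolysis 0.0449, against 0.113 over protein-coding genes. Cytosolic ribosomal proteins had 0.0596 and mitochondrial ones 0.0594. The 306 genes with a mean of 10000 or more had 0.0663, a class that itself includes cytosolic ribosomal protein genes such as rpl-27A. The median over all genes with means of 1000 to 3000 was 0.0720, against a median counting error of 0.0252. The 5 genes with the smallest value among those with a mean of at least 100 were math-33, prp-6, tat-1, lgc-31 and depd-5. For prp-6, a splicing factor, the levels were 1026, 1028 and 1025, and for the aminophospholipid flippase gene tat-1 they were 617, 617 and 619. Such small values were picked as the extreme of 10815 genes. Genes often used as standards for quantitative PCR ranged from 0.00384 for gpd-2 to 0.121 for pmp-3. Of these, cdc-42 had levels of 2669, 2592 and 2686, tba-1 4487, 4694 and 4442, and act-1 7606, 8214 and 7271.

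Skin genes varied more than most. The median coefficient of variation was 0.322 in the molting list and 0.309 in the hypodermis list, and 0.304 in the oocyte list. Among 10815 genes with a mean of at least 100, 142 were at least 2-fold lower in replicate 1 than in both other libraries, and 4 were at least 2-fold higher. The 142, which are 1.31% of the 10815 genes, included 16 cuticle collagens, 14 molting genes and 8 hypodermis genes (lists overlap). Those lists hold 144, 39 and 16 genes that averaged 10 or more. Of the 142, 40 (28.2%) lay on X, against 13% of all genes with a mean of at least 100. The collagen gene col-41 had 109.6 normalized counts in replicate 1, against 1430.4 in replicate 2 and 813 in replicate 3. The furrow collagen gene dpy-7 had 139.5, 684 and 620.1, and the apical matrix gene noah-1 539, 2472 and 2288. Lipocalin-related genes of the apical matrix, lpr-3, lpr-4, lpr-5 and lpr-6, were low together, with lpr-3 at 299.9, 1514 and 1465. Genes outside these lists did the same, among them pud-3 with 929.7, 5389.5 and 5709 counts and pud-4, pud-1.1 and pud-1.2, also on chromosome V. These genes were named after their values were seen.

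Replicate 2 was set apart by another group. Of the same genes, 33 were at least 2-fold higher there than in both other libraries and 32 were lower, and the 10 largest coefficients of variation all had replicate 2 highest. Of the 33, 14 (42.4%) lay on chromosome IV, against 17.5% of all genes with a mean of at least 100. On that chromosome, 12 genes with C32H11 sequence names lie within 31.4 kb (12913103 to 12944526), and 5 of them were at least 2-fold higher in replicate 2. Of these 5, irg-6 averaged 56.8 normalized counts and so is not among the 33. The cluster was picked after its values were seen. It does not mark the end of the pattern: on either side, K08D8.4 (from 12907497), K08D8.5, dod-22, mbug-1 and dod-17 (to 12978344) were also among the 33. They too were named after their values were seen, and other genes beside the cluster were not counted. In replicates 1 to 3, dod-21 had 3, 522 and 0 reads, cld-1 had 10, 403 and 1, and irg-6, named for its response to infection, had 3, 169 and 1. C32H11.4 had 271, 1711 and 155, and dod-24 had 567, 2174 and 310. Others of the 12 did not do so: srlf-5 had 24, 33 and 73 reads and C32H11.7 had 74, 61 and 55. Elsewhere, dct-17 had 276, 2703 and 145 normalized counts and the cytochrome P450 gene cyp-33A1 435, 2432 and 288. The glutathione S-transferase gene gst-5 had 1209, 2646 and 918.

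The 32 genes lower in replicate 2, which are 0.296% of the 10815 genes, included 2 cuticle collagens and 4 glucuronosyltransferases. Those lists hold 144 and 59 genes that averaged 10 or more. Chromosome V carried 13 of the 32 (40.6%), against 17.5% of the 10815 genes. The acyl-CoA synthetase gene acs-2, which acts in fatty acid oxidation, had 2043 and 3766 normalized counts in replicates 1 and 3, against 657 in replicate 2. The acyl-CoA dehydrogenase gene acdh-2 had 2544 and 3445 against 974, the transporter gene pgp-6 2867 and 3797 against 973, and ugt-26 2899.8 and 3278 against 1160.3. In replicate 3, 17 genes were at least 2-fold higher than in both others and 8 were lower. Of the 17 genes, 11 (64.7%) lay on chromosome V, against the same 17.5% of the 10815 genes. The 17 include the alcohol dehydrogenase gene adh-1, with 3401 counts in replicate 3 against 1642 and 1104, and the fatty acid desaturase gene fat-5, with 564 against 245 and 131. Y39B6A.1 had 14979.6 against 6302 and 6706. What set any library apart is not given in the labels and was not tested.

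**Figure D5:**
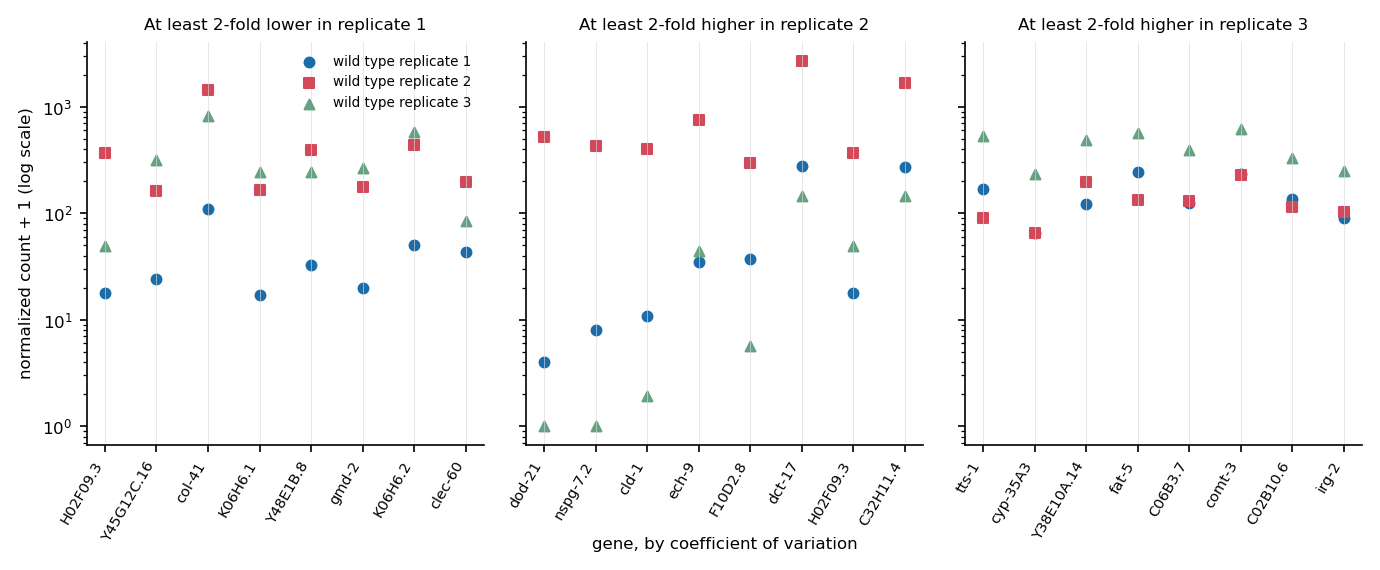
Normalized count plus 1 (log scale) of the 8 genes with the largest coefficient of variation among those at least 2-fold lower in wild type replicate 1, higher in replicate 2 or higher in replicate 3 than in both other libraries; each marker is 1 library. In the left panel replicate 1 is lowest for each gene (col-41, 109.6), and in the middle panel replicate 2 is highest, with dod-21 at 0 in replicate 3.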

How the data were processed

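Whole-worm RNA was isolated with TRIzol, and NEBNext Ultra reagents were used for library preparation, per the labels' protocols. No label says that strand was kept, so reads of overlapping or antisense genes cannot be told apart. The tools named were HISAT2 2.0.5 and featureCounts 1.5.0-p3, beside CASAVA 1.8 and StringTie 1.3.3b, per the submitters' processing notes. Those notes also list DESeq2 1.20.0. Their build is WBcel235. The deposited signal columns are the authors' normalized counts: each library's values were whole multiples of 1 step, to within 0.01 read for 100% of them, so the counts of reads could be recovered.

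Levels are normalized counts per kilobase of the deposited gene length. Symbols came from Ensembl 115 and RefSeq and were found for 11435 IDs, and the 57 IDs that share 27 symbols kept their IDs. Of the deposited lengths, 60.0% lay within 5% of the annotation's exon union. Genes were called detected with at least 1 read in every library. Python 3.11.15, R 4.3.3 and edgeR 4.0.16 (dispersion on the recovered reads, TMM factors, tried on simulated data) were used. No groups were compared and no p-value was computed. Intervals for a count of 0 use 3 reads. Pairs of libraries differed by a chi-square of 23.8 to 31.9 per degree of freedom, so none was a copy.

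The gene lists and rules were chosen with earlier results of these data known. Named by rule were the 20 highest protein-coding genes, the 5 highest of other classes, the highest of each chromosome, the 2 highest of each list, all marker genes of stage, sex and reference lists, and, with a mean of at least 100, the 10 largest and 5 smallest coefficients of variation; further list members were named after their values were seen. Alternatives were other detection rules, no length division, exon-union length, gene classes left out, other filters and pseudocounts, and leaving out each library.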

Additional observations from a re-analysis of the deposited data

How the results depend on the processing

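No paired analysis was possible because only wild-type libraries are described and no groups were compared. The values below were recomputed under 32 settings beside leaving out each library. Without division by length, the 10 highest genes took 5.34%, 550 genes held 50% of the sum, protein-coding genes took 98.9%, the mitochondrial genome 1.46%, ribosomal proteins 11.3%, collagens 7.06%, major sperm proteins 0.377% and vitellogenins 1.63%, and X minus autosomes was -0.83. With exon-union lengths the 10 highest took 4.81% and protein-coding genes 98.2%. The median coefficient of variation was 0.0981 with a mean of at least 50 and 0.141 with a mean of at least 1; as the SD of log2(value + 1) it was 0.164. Leaving out 1 library gave 0.0764 (without replicate 1) to 0.105 for that median and 0.137 to 0.189 for edgeR's common value. Medians over 2 libraries run lower than over 3. The other causes were not tested. X minus autosomes stayed negative in all settings, between -1.05 and -0.83. The other 51 recomputed values moved by less than the spread between libraries, or, for counts of genes, by less than 1.5 times. Depth limits the low end: 1 read decides whether a gene near 0 counts as detected, and a high level of a short gene can rest on few reads.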
